A study of Homo sapiens with 12 samples.

Results

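The taste receptor genes were taken as every name in the RNA-seq count table that starts with TAS1R or TAS2R. There were 36 such names among 55765. Of these 36, 21 had at least 30 raw counts summed over the 6 RNA-seq libraries, 6 had between 1 and 20 counts, and 9 had none. The set was chosen by its response in these same libraries, namely that all of its tested members were higher after ERI2 siRNA, so the differences given for its members are a description. Members that the fit over all genes called are counted below, but these calls come from the values that chose the set and support nothing about it. HEK293T cells, a human embryonic kidney line with an SV40 large T antigen, received 50 nM of an siRNA against ERI2 or of a control siRNA, again after 48 hours, and were collected 72 hours later. ERI2 encodes an exonuclease of the DEDD type. Both groups went through the same transfections and have 3 RNA-seq libraries each. The labels give HEK293T as the source while the growth text writes HEK293, and the treatment text ends with a harvest for arrays.

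Taste receptors are G protein-coupled receptors of the tongue. TAS1R1 and TAS1R2 each pair with TAS1R3, the first pair sensing umami and the other sweet compounds, while the TAS2R receptors each sense bitter compounds. In taste cells a receptor acts through a G protein with gustducin (GNAT3) and GNG13, the phospholipase PLCB2, the calcium channel ITPR3 and the cation channel TRPM5, and the factor POU2F3 is needed to form the cells that carry these receptors. TAS2R genes have a coding region without introns, lie in clusters, and have several pseudogene relatives. RefSeq places 20 of the 36 names on chromosome 12, 12 on chromosome 7, 3 on chromosome 1 and 1 on chromosome 5.

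The upstream sequences of these genes were searched for 3 short motifs. The octamer that POU factors bind, ATGCAAAT or ATTTGCAT on the other strand, was looked for in the RefSeq windows of 300 bases around annotated starts (250 before and 50 after; GRCh38.p14), which were held for 20 of the 33 TAS2R names. It stood in 10 of these 20 windows, against 1.77% of all 35116 windows and 1.85% of 324 windows of olfactory receptor genes, another family with few introns. It was not confined to genes with counts: 5 of 11 windows of TAS2R genes with at least 30 counts held it, and 5 of 9 windows of those with fewer. The GC box GGGCGG or CCGCCC, frequent in promoters of broadly used genes, stood in 1 of the 20 TAS2R windows, in 45% of all windows and in 0.926% of the olfactory receptor windows. Median GC content was 37.5% in TAS2R windows, 58.7% in all windows and 37.7% in the olfactory receptor windows, so that few GC boxes and low GC were common to both receptor families. The TATA motif, TATAAA or TTTATA on the other strand, stood in 5 of the 20 TAS2R windows (25%), in 11.5% of all windows and in 34.6% of the olfactory receptor windows. It stood in 5 of the 11 windows of TAS2R genes with at least 30 counts and in 0 of the 9 with fewer. The motif was counted anywhere in a window, and a link to expression was not tested. The 3 TAS1R windows held 0 octamers, 1 GC box and 0 TATA motifs, with a median GC content of 58.7%. A match is a string of letters and was not tested for binding.

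The 250 bases before the start are shown for 4 receptor genes with different responses and, beneath them, for the long transcript PRH1-PRR4, within whose span 14 of the chromosome 12 members lie. TAS2R13 and TAS2R5 had the largest log2 fold changes among the receptor genes called higher, TAS2R10 differed least, and TAS2R30 had the most counts. Capitals mark the octamer in the first 3 sequences and the GC box in the last, and TAS2R30 holds no octamer. They are RefSeq sequences of GRCh38.p14, written 5′ to 3′ on the strand named.
TAS2R13, chr12:10909563-10909812, minus strand: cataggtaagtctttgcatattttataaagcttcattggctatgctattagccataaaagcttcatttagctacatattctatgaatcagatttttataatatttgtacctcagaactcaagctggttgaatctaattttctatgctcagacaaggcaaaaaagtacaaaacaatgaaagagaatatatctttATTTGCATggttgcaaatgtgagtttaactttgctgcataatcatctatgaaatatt
TAS2R5, chr7:141789967-141790216, plus strand: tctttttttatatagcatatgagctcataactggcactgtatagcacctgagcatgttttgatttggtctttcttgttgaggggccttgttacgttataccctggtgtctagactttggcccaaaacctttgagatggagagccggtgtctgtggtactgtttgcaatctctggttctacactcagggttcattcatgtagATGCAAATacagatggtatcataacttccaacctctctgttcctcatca
TAS2R10, chr12:10826359-10826608, minus strand: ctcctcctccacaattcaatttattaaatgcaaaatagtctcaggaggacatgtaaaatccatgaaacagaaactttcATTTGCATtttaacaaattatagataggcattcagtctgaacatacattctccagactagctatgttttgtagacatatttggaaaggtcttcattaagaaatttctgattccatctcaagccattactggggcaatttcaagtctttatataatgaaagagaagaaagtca
TAS2R30, chr12:11134645-11134894, minus strand: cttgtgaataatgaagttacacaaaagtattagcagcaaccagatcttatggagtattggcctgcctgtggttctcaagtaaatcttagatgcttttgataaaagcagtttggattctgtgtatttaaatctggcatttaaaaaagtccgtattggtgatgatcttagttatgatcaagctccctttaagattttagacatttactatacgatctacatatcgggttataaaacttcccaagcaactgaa
PRH1-PRR4, chr12:11171626-11171875, minus strand: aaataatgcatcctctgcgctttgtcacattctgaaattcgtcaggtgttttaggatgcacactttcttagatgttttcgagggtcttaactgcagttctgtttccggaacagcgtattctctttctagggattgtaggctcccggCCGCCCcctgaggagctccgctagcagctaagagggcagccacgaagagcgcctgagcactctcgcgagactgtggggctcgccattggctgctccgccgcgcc

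The octamer began 57 bases before the start in TAS2R13, 49 bases before it in TAS2R5 and 172 bases before it in TAS2R10. These genes were picked by response, and a link of position to response was not tested. TAS2R3, with a log2 fold change of 0.51, had its octamer 207 bases before the start. TAS2R50, called higher like TAS2R30, held none. The window of PRH1-PRR4 had 57.3% GC and 21 CG pairs, and the TAS2R30 window had 35% GC and 4 CG pairs.

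RNA-seq libraries held from 29143596 to 32646277 counts after ERI2 siRNA and from 30099367 to 38306631 counts with control siRNA. ERI2 itself was lower in each ERI2 siRNA library, at 34.6, 35.8 and 32.5 CPM (the count scaled to library size, with TMM factors) against 54.4, 58.2 and 54.4 CPM with control siRNA. Nothing in the labels says that the libraries of a group came from separate cultures, so p-values cover only variation between these libraries, possibly technical. Within each group replicate 1 stood farthest from the others: the chi-square per degree of freedom was 14.7 and 16.0 for ERI2 siRNA replicate 1 and 5.03 between the other ERI2 siRNA libraries, and 23.4 and 24.9 for control replicate 1 and 13.9 between the other control libraries. In bulk RNA, fewer cells of a kind and less RNA per cell cannot be told apart. Among the taste cell markers, GNAT3, GNG13 and CALHM1 were at 0 counts in all 6 libraries. POU2F3 had at most 4 counts in any library and TRPM5 at most 10. Summed over the libraries, PLCB2 had 148 counts, SNAP25 34 and ENTPD2 33. The 14 taste cell markers summed to between 85.1 and 96.9 CPM after ERI2 siRNA and between 95.8 and 115 CPM with control siRNA, nearly all of it from ITPR3, which many cells express, and the keratin gene KRT8. Of 7 markers of keratinocytes and carcinoma lines 4 were tested and all 4 were called lower. They summed, all 7 together, to 19.2 to 21.5 CPM after ERI2 siRNA and 34.6 to 38.3 CPM with control siRNA. The fibroblast markers (6 in the table, 4 tested) summed to 13.8 to 18.1 CPM after ERI2 siRNA against 15.7 to 19 CPM with control siRNA. Of the 4 tested, 2 had a log2 fold change above 0 and 2 below it, and COL3A1 alone was called, as lower. The 6 blood markers (3 tested, 0 called) summed to 1.52 to 1.78 CPM after ERI2 siRNA against 1.73 to 2.75 CPM with control siRNA. The 6 markers of HEK293 lines, all tested and 2 of them called lower, summed to 715 to 904 CPM after ERI2 siRNA against 922 to 1057 CPM with control siRNA. KRT5, COL1A2 and HBB were at 0. Called means an adjusted p under 0.05 in the edgeR fit described below. In that fit 4.29% of all tested genes were called higher and 4.25% lower. The part of other cells in the receptor values was not tested.

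Of the 36 names, 20 passed the filter on low counts and entered the test of all 18843 genes. All 20 had a log2 fold change above 0, as had 50.5% of all tested genes, and their median was 0.60 beside 0.00 over all tested genes (log2 of ERI2 siRNA over control siRNA). By the quasi-likelihood test of edgeR, with p adjusted over all genes after Benjamini and Hochberg, 7 of the 20 were called higher at an adjusted p under 0.05 and 0 lower, where 4.29% of all tested genes were called higher and 4.25% lower, 8.54% in all. Unadjusted, 16 of them had a p under 0.05 and a higher level and 0 a lower one, beside 13.4% and 13.1% of all tested genes, and DESeq2 and limma-voom also called 0 lower. In 14 of the 20 the groups stood clear of each other, with every ERI2 siRNA library above every control library, as for 14.1% of all tested genes. The members had mean levels from 0.344 to 14.6 CPM, and over the 8957 tested genes within that range 58.8% had a log2 fold change above 0, 4.5% were called higher and 2.1% lower (6.6% in all), and 16.4% did not overlap in this direction, with a median of 0.09. These shares describe the genes around the members, and since the members were chosen for this contrast nothing is read from the difference. A member could pass the filter through the group in which it was higher, so the 20 are not all members. Of the 20, 19 had at least 10 counts in each control library, and TAS1R3 had fewer.

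**Figure D1:**
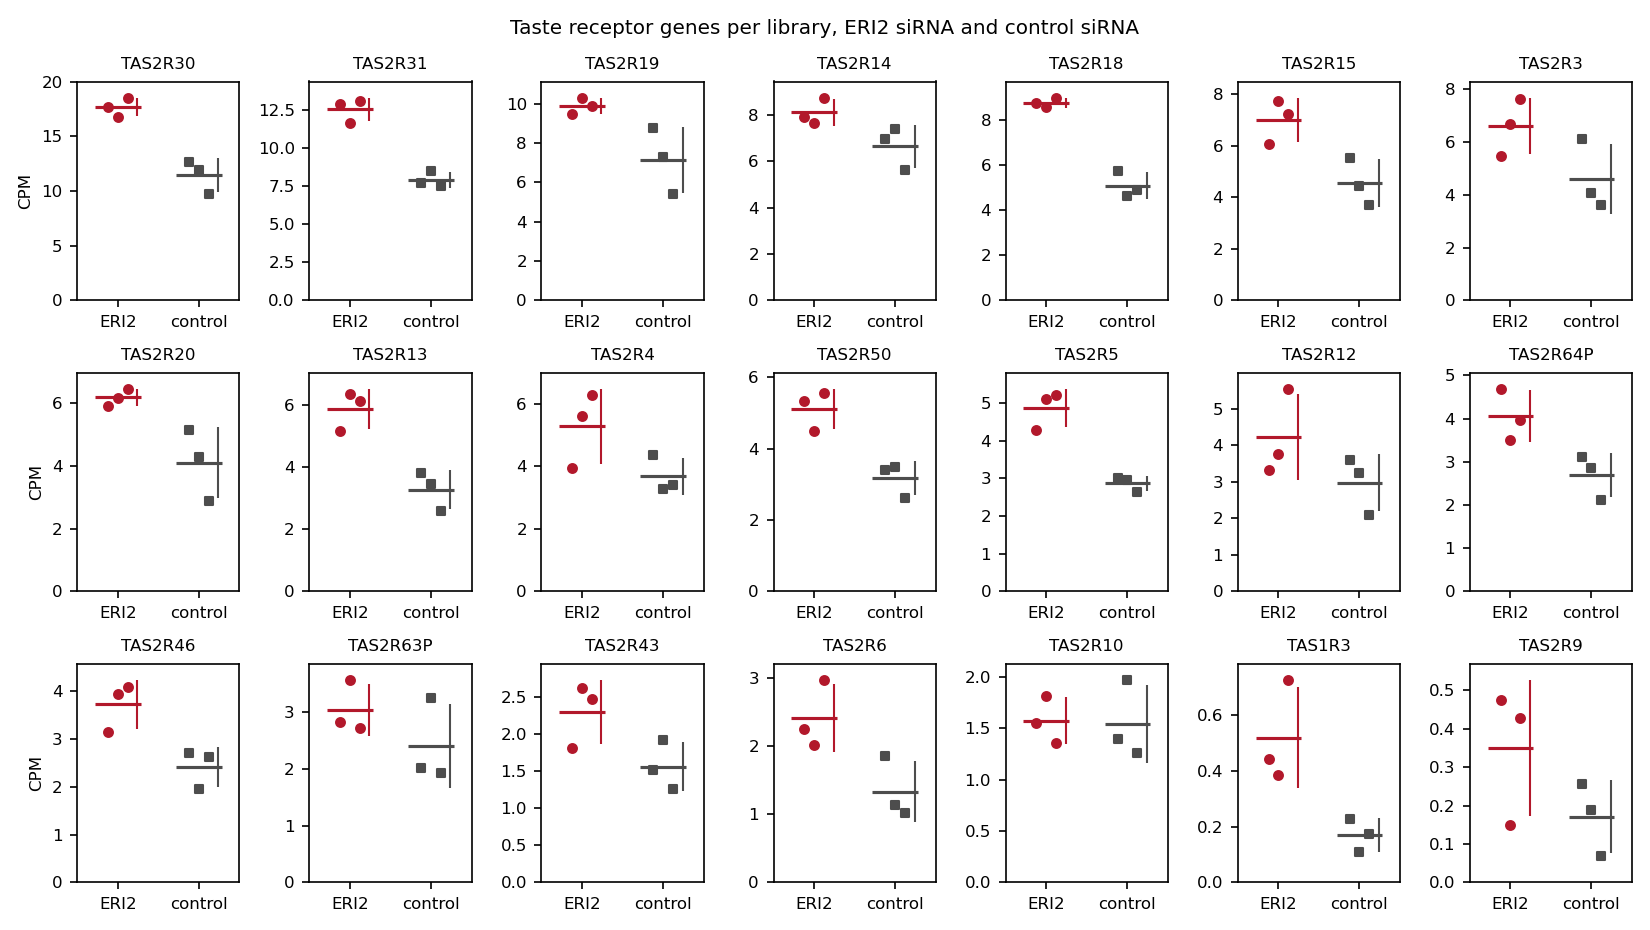
Level of each of the 21 taste receptor genes with at least 30 summed counts, in CPM on the vertical axis, in the 3 ERI2 siRNA libraries (red circles, left) and the 3 control siRNA libraries (grey squares, right); the horizontal line is the mean and the vertical line 1 SD. The groups stand apart for TAS2R30 and TAS2R31, while TAS2R10 averaged 1.57 CPM after ERI2 siRNA and 1.54 CPM with control siRNA.

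The members summed to 114, 119 and 128 CPM in the ERI2 siRNA libraries, against 90.2, 82.4 and 67.5 CPM in the control siRNA libraries. The means were 120 ± 7.22 CPM after ERI2 siRNA and 80.1 ± 11.5 CPM with control siRNA (SD, n = 3 each), a ratio of 1.5. Control replicate 3 was the lowest library and ERI2 siRNA replicate 3 the highest, and the ratio lay between 1.39 and 1.61 when single libraries were left out, lowest without control replicate 3.

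A stretch of chromosome 12 gave 98.5 ± 4.33 of these CPM after ERI2 siRNA and 65.4 ± 9.29 with control siRNA (SD, n = 3 each). TAS2R30, a receptor for denatonium, had 17.7, 16.8 and 18.5 CPM after ERI2 siRNA, against 12.7, 11.9 and 9.76 CPM with control siRNA. It was called higher, with a log2 fold change of 0.62 (SE 0.110). TAS2R31, a receptor that saccharin activates, had 12.9, 11.7 and 13.1 CPM after ERI2 siRNA, against 7.74, 8.48 and 7.49 CPM with control siRNA. Its log2 fold change was 0.66 (SE 0.112), and it was called higher, with a wide gap between the groups. TAS2R18, a pseudogene, had 8.78, 8.58 and 9.01 CPM after ERI2 siRNA, against 5.77, 4.62 and 4.91 CPM with control siRNA. It was called higher too, by 0.78 (SE 0.131). These 3 were the members that kept the call without each of the 6 libraries in turn, and the same 3 kept it at an adjusted p under 0.01.

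TAS2R13, another bitter receptor gene, had 5.16, 6.38 and 6.14 CPM after ERI2 siRNA, against 3.81, 3.46 and 2.58 CPM with control siRNA. All ERI2 siRNA libraries lay above all control libraries, and the log2 fold change was 0.84 (SE 0.173), the highest of the 7 called. TAS2R50, a receptor for bitter diterpenoids such as andrographolide, had 5.32, 4.48 and 5.54 CPM after ERI2 siRNA, against 3.41, 3.48 and 2.61 CPM with control siRNA, and was called higher by 0.68. TAS2R15, a pseudogene, had 6.08, 7.75 and 7.23 CPM after ERI2 siRNA, against 5.52, 4.46 and 3.69 CPM with control siRNA, and was called higher by 0.62. TAS2R13 lost its call without ERI2 siRNA replicate 2, ERI2 siRNA replicate 3 or control replicate 3, and TAS2R50 and TAS2R15 without any 1 of these and without control replicate 2 as well.

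The other chromosome 12 members of this stretch were not called, with log2 fold changes from 0.28 to 0.63. TAS2R19 had 9.47, 10.3 and 9.90 CPM after ERI2 siRNA, against 8.76, 7.27 and 5.40 CPM with control siRNA. Its groups did not overlap, although control replicate 1 came near to ERI2 siRNA replicate 1. TAS2R14, among the most broadly tuned of the bitter receptors, had 7.92, 7.66 and 8.74 CPM after ERI2 siRNA, against 6.97, 7.37 and 5.61 CPM with control siRNA. Its log2 fold change of 0.28 (SE 0.135) was 0.16 without control replicate 3. TAS2R20 had 5.92, 6.17 and 6.47 CPM after ERI2 siRNA, against 5.15, 4.29 and 2.89 CPM with control siRNA. TAS2R46, a broadly tuned receptor that strychnine activates, averaged 3.73 ± 0.515 CPM after ERI2 siRNA and 2.42 ± 0.414 CPM with control siRNA (SD, n = 3 each), and TAS2R64P, a pseudogene, averaged 4.05 ± 0.599 CPM after ERI2 siRNA and 2.70 ± 0.508 CPM with control siRNA. The groups did not overlap for TAS2R20, TAS2R46 and TAS2R64P either. They overlapped for TAS2R12, TAS2R63P and TAS2R43. The pseudogene TAS2R12 had 3.33, 3.77 and 5.54 CPM after ERI2 siRNA, against 3.58, 3.24 and 2.09 CPM with control siRNA. TAS2R63P had 2.82, 3.56 and 2.71 CPM after ERI2 siRNA, against 2.02, 3.24 and 1.92 CPM with control siRNA, and TAS2R43 had 1.81, 2.61 and 2.47 CPM after ERI2 siRNA, against 1.51, 1.92 and 1.25 CPM with control siRNA. Several of these genes, TAS2R30, TAS2R31, TAS2R43 and TAS2R46 among them, are close copies of one another, so reads may be split or lost between them and each single value is uncertain.

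The counts were grouped by position. In the order that RefSeq gives for GRCh38.p14, used here for order alone since the counts were made on hg19, TAS2R7, TAS2R8, TAS2R9 and TAS2R10 come first, then PRR4, then 14 members that lie within the span of PRH1-PRR4, and last TAS2R67P and TAS2R42. All 14 within the span had at least 380 counts. All 14 also had a log2 fold change above 0 (median 0.60, from 0.28 to 0.84), and 6 were called higher. Over all tested genes 50.5% had a log2 fold change above 0 and 4.29% were called higher, and the members were chosen for this direction. Of the 6 chromosome 12 members outside the span, TAS2R67P and TAS2R42 had 0 counts. TAS2R7, TAS2R8 and TAS2R9 had 11, 13 and 51 counts over all libraries, and TAS2R10 had 309. TAS2R10, a broadly tuned receptor that also responds to strychnine, had 1.55, 1.81 and 1.35 CPM after ERI2 siRNA, against 1.39, 1.97 and 1.25 CPM with control siRNA. Its groups overlapped fully and its log2 fold change was 0.02 (SE 0.247).

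**Figure D2:**
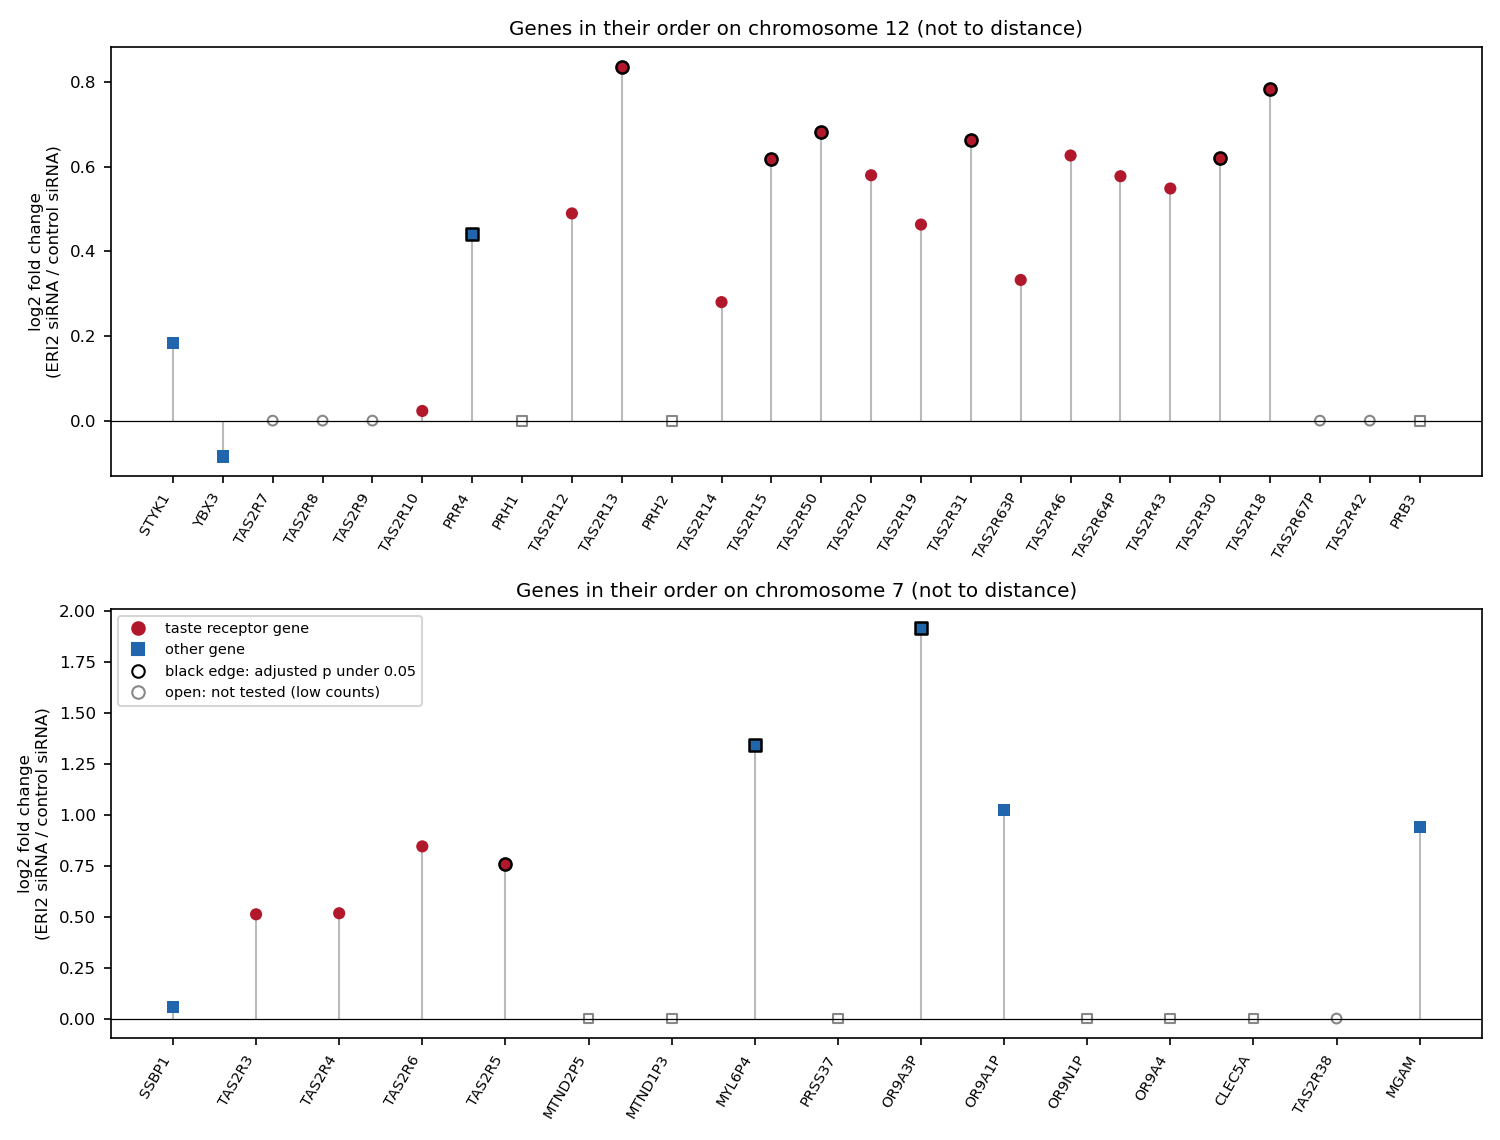
Log2 fold change of ERI2 siRNA over control siRNA (vertical axis) for genes in their order on chromosome 12 (top) and chromosome 7 (bottom), with taste receptor genes as red circles, other genes as blue squares, a black edge where the adjusted p was under 0.05 and an open mark on the zero line, which carries no value, where counts were too low to test. The 14 members from TAS2R12 to TAS2R18 lie between 0.28 and 0.84, with TAS2R10 at 0.02 and no tested gene among the 3 beyond TAS2R18.

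PRR4, a gene for a secreted proline-rich protein, lies at the end of that span and is no member. It had 25.8, 23.2 and 26.4 CPM after ERI2 siRNA, against 21.1, 17.6 and 16.7 CPM with control siRNA. Its level rose, with a log2 fold change of 0.44 (SE 0.102; adjusted p = 0.0189 by edgeR), with all ERI2 siRNA libraries above all control libraries. The adjusted p was 0.0872 without ERI2 siRNA replicate 3, 0.0736 without control replicate 2 and 0.102 without control replicate 3 by edgeR, with log2 fold changes of 0.40, 0.40 and 0.36. PRH1, an acidic proline-rich protein gene of saliva that overlaps the 14 members in RefSeq, had 0 counts in all libraries, and PRH2, its close relative, had 7 in all. As the strand setting was not given in the sources used here, reads of a longer transcript through this stretch and reads of the receptor genes cannot be told apart. On the other side of TAS2R7, YBX3, a cold shock domain protein gene, averaged 209 ± 13.2 CPM after ERI2 siRNA and 221 ± 6.95 CPM with control siRNA (SD, n = 3 each; estimate -0.08 on log2, adjusted p = 0.494 by edgeR).

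On chromosome 7 the 4 members with counts stand together, TAS2R3, TAS2R4, the pseudogene TAS2R6 and TAS2R5, and the other 8 had 0 to 3 counts in all. TAS2R5 had 4.28, 5.11 and 5.21 CPM after ERI2 siRNA, against 3.01, 2.94 and 2.65 CPM with control siRNA. It was called higher by 0.76 (SE 0.161), the only one of the 4, and lost the call without ERI2 siRNA replicate 2, ERI2 siRNA replicate 3 or control replicate 3. TAS2R6 had 2.25, 2.02 and 2.97 CPM after ERI2 siRNA, against 1.85, 1.13 and 1.01 CPM with control siRNA, also without overlap (log2 fold change 0.84, SE 0.262). TAS2R3, a receptor for chloroquine, had 5.48, 6.68 and 7.62 CPM after ERI2 siRNA, against 6.11, 4.08 and 3.62 CPM with control siRNA. TAS2R4 had 3.93, 5.61 and 6.27 CPM after ERI2 siRNA, against 4.35, 3.27 and 3.42 CPM with control siRNA. For both, ERI2 siRNA replicate 1 lay below control replicate 1. Summed over the 4 genes, the ERI2 siRNA libraries had 15.9, 19.4 and 22.1 CPM, against 15.3, 11.4 and 10.7 CPM in the control siRNA libraries, so that the replicate 1 libraries were almost equal.

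**Figure D3:**
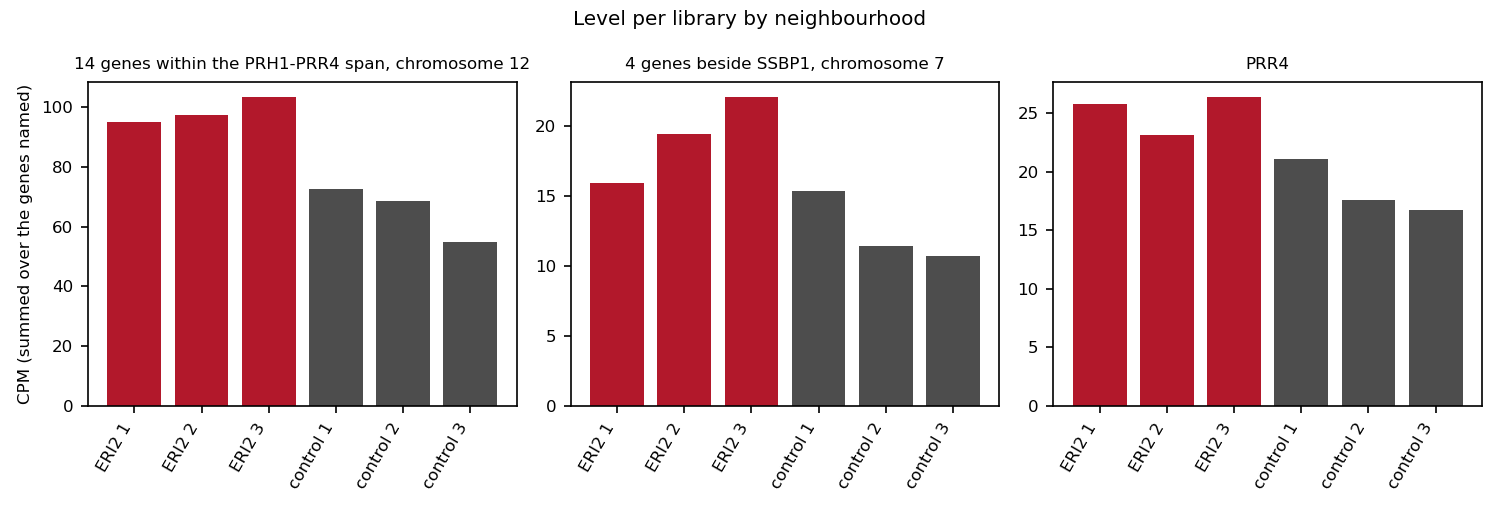
Level in CPM (vertical axis, from 0) in each of the 3 ERI2 siRNA libraries (red, left) and 3 control siRNA libraries (grey, right), summed over the 14 chromosome 12 members within the PRH1-PRR4 span, over the 4 chromosome 7 members with counts, and for PRR4. The span sums to 95, 97.2 and 103 CPM after ERI2 siRNA against 72.7, 68.6 and 55 CPM with control siRNA, and the chromosome 7 genes have their smallest gap between the replicate 1 libraries.

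The neighbours were measured as well. SSBP1, a mitochondrial DNA-binding protein gene before TAS2R3, averaged 148 ± 11.2 CPM after ERI2 siRNA and 143 ± 16.2 CPM with control siRNA (SD, n = 3 each; estimate 0.06 on log2, adjusted p = 0.734 by edgeR). Past TAS2R5, the pseudogene MTND2P5 had 0 counts. Farther on, and named after their values were seen, the pseudogenes MYL6P4 and OR9A3P rose. MYL6P4 had 34, 36 and 43 counts after ERI2 siRNA, against 14, 19 and 14 counts with control siRNA (estimate 1.34 on log2, adjusted p = 0.0179 by edgeR). OR9A3P had 19, 28 and 36 counts after ERI2 siRNA, against 11, 5 and 7 counts with control siRNA (estimate 1.91 on log2, adjusted p = 0.0163 by edgeR). Without 1 library at a time, other than the replicate 1 libraries, the adjusted p by edgeR reached 0.0983 for MYL6P4 and 0.0979 for OR9A3P, both without ERI2 siRNA replicate 3.

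Both receptor genes and pseudogenes among the TAS2R names had values above 0. Of 24 receptor genes 13 were tested and 5 called higher, with a median log2 fold change of 0.58. Of 9 pseudogenes 6 were tested and 2 called higher, with a median of 0.60. Over all tested genes 4.29% were called higher, with a median of 0.00, and the members were chosen for this direction. The 6 pseudogenes summed to 27.9, 29.2 and 31.4 CPM after ERI2 siRNA, against 21.8, 19.6 and 15.8 CPM with control siRNA. A difference between the 2 kinds was not tested.

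Among the TAS1R genes only TAS1R3, the subunit shared by the sweet and umami receptors, entered the test. It had 14, 13 and 22 counts after ERI2 siRNA, against 8, 4 and 5 counts with control siRNA. The groups did not overlap, and the log2 fold change of 1.59 (SE 0.474), the largest of the 20, was not called. DVL1, a Wnt signalling gene that overlaps TAS1R3 in RefSeq, averaged 83.9 ± 7.29 CPM after ERI2 siRNA and 57.7 ± 8.14 CPM with control siRNA (SD, n = 3 each) and rose by 0.54 (adjusted p = 0.00715 by edgeR), higher in 3 of 3 libraries. GLTPD1, a lipid transfer protein gene before it, measured 0.24 (adjusted p = 0.190 by edgeR) and MXRA8 after it -0.19 (adjusted p = 0.620 by edgeR). As the strand setting was not given, reads from the overlap of DVL1 and TAS1R3 cannot be told apart. TAS1R1 had 0, 2 and 1 counts after ERI2 siRNA, against 4, 3 and 10 counts with control siRNA, without overlap and opposite in direction to TAS1R3, but under the limit of 30 counts. TAS1R2 had 4 counts in all.

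At the limit of 30 summed counts, TAS2R9 with 51 and TAS1R3 with 66 counts lay just inside and TAS1R1 with 20, TAS2R8 with 13 and TAS2R7 with 11 counts just outside. TAS2R9 had 15, 5 and 13 counts after ERI2 siRNA, against 9, 7 and 2 counts with control siRNA, with overlapping groups, and did not pass the filter on low counts. TAS2R8 had 4, 0 and 3 counts after ERI2 siRNA, against 5, 1 and 0 counts with control siRNA, and TAS2R7 had 3, 6 and 1 counts after ERI2 siRNA, against 0, 0 and 1 counts with control siRNA. The remaining names with any count were TAS1R2, TAS2R62P and TAS2R38, the receptor for phenylthiocarbamide, with 4, 3 and 1 counts in all. TAS2R1, TAS2R16, TAS2R2P, TAS2R39, TAS2R40, TAS2R41, TAS2R42, TAS2R60 and TAS2R67P had 0 counts in every library. A count of 0 allows up to 3 counts, or from 0.0810 to 0.105 CPM by library, counting error only.

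Genes that act with the receptors were tested in the same fit. Of 35 genes of taste signalling, receptor trafficking and purinergic output in the table, 20 were tested, 0 were called higher and 1 lower by edgeR (unadjusted, 1 higher and 7 lower with p under 0.05; 0 higher and 1 lower by DESeq2 and by limma-voom). Over all tested genes 4.29% were called higher and 4.25% lower, and 13.4% and 13.1% had an unadjusted p under 0.05. The numbers called at the adjusted threshold were near the background. The 7 of 20 that were lower with an unadjusted p under 0.05 by edgeR were a larger share than 13.1%. The cause was not tested. The list's median log2 fold change was -0.12. REEP2, which helps receptors reach the cell surface, had 23, 26.1 and 28.5 CPM after ERI2 siRNA, against 34.3, 33.3 and 41.2 CPM with control siRNA, and fell, with a log2 fold change of -0.48 (SE 0.103; adjusted p = 0.0135 by edgeR). The adjusted p was 0.0534 without ERI2 siRNA replicate 2 and 0.0633 without control replicate 3 by edgeR, at log2 fold changes of -0.49 and -0.40. Its relative REEP1 (-0.32, adjusted p = 0.0675 by edgeR), the channel gene PANX1 (-0.24, adjusted p = 0.0849 by edgeR) and the arrestin gene ARRB1 (-0.27, adjusted p = 0.102 by edgeR) missed the threshold. PLCB2 had 35, 23 and 23 counts after ERI2 siRNA, against 22, 22 and 23 counts with control siRNA. It was tested and not called (log2 fold change 0.34, adjusted p = 0.531 by edgeR). ITPR3 averaged 77.3 ± 7.33 CPM after ERI2 siRNA and 88.3 ± 7.61 CPM with control siRNA (SD, n = 3 each; adjusted p = 0.176 by edgeR). TRPM5, too low to test, had 5, 10 and 9 counts after ERI2 siRNA, against 3, 5 and 4 counts with control siRNA.

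Other chemoreceptor families with low counts were set beside the taste receptors. Of 843 olfactory receptor names 709 had 0 counts, and of the 12 tested 3 were called higher and 0 lower (edgeR; unadjusted, 6 higher and 0 lower with p under 0.05), with a median log2 fold change of 0.55. Among all tested genes the shares were 4.29% called higher and, unadjusted, 13.4% higher and 13.1% lower. The 3 called were OR2D2 (1.2, adjusted p = 0.0169), OR2W6P (0.86, adjusted p = 0.0460) and OR9A3P, given above, by edgeR. OR2D2 had 51, 43 and 50 counts after ERI2 siRNA, against 25, 23 and 18 counts with control siRNA. OR2W6P had 90, 84 and 101 counts after ERI2 siRNA, against 75, 57 and 30 counts with control siRNA. By edgeR the adjusted p of OR2D2 rose to 0.0771 without ERI2 siRNA replicate 3, 0.0584 without control replicate 2 and 0.0626 without control replicate 3. That of OR2W6P was 0.0840 and 0.174 without ERI2 siRNA replicates 2 and 3 and 0.126 and 0.161 without control replicates 2 and 3. Of 60 vomeronasal receptor names 11 were tested and none was called (edgeR; unadjusted, 3 higher and 0 lower with p under 0.05), with a median of 0.32, where the same shares of all tested genes apply, and of 9 trace amine receptor names none was tested. Whether the taste receptors differ from these families was not tested.

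**Figure D4:**
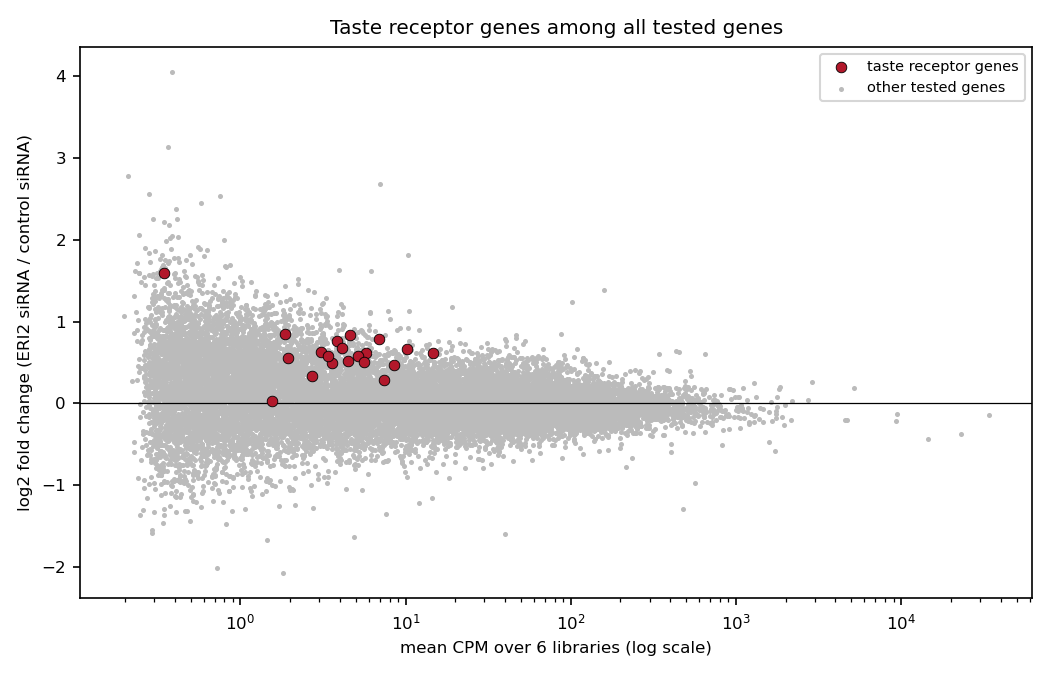
Log2 fold change of ERI2 siRNA over control siRNA (vertical axis) against mean CPM over the 6 libraries (horizontal axis, log scale) for all 18843 tested genes (grey) and the 20 tested taste receptor genes (red). The taste receptor genes have means between 0.344 and 14.6 CPM and all lie above 0, TAS2R10 at 0.02 and TAS1R3 at 1.59.

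Single libraries moved these counts. Of the 20 tested members, 17 were higher in ERI2 siRNA replicate 1 than in control replicate 1. The number was 19 in the replicate 2 libraries and 20 in the replicate 3 libraries. Whether the replicate numbers pair the libraries is not given in the labels. The members were chosen for this direction, so these numbers are a description. The matching shares of all tested genes were not taken. With replicates 2 and 3 alone 15 members were called higher, where 13.9% of all tested genes were called higher. The count was 13 without ERI2 siRNA replicate 1 and 13 without control replicate 1, where 7.31% and 6.33% of all tested genes were called higher. It was 5 without control replicate 2 and 3 without each of ERI2 siRNA replicate 2, ERI2 siRNA replicate 3 and control replicate 3. In those 4 fits the shares of all tested genes called higher were 1.54%, 1.18%, 0.913% and 1.38%.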

How the data were processed

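Counts are raw read counts per gene name, deposited by the authors as 1 table of 55765 names with a column for each library. The submitters' processing notes list build hg19 with HTSeq 0.6.1p1, TopHat2 2.0.10 and CASAVA 1.8.2. The annotation release and strand setting were not given in the sources used here. All columns matched a sample by title, and the miRNA table was not used.

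Low counts were removed by filterByExpr, libraries scaled by TMM, and a robust quasi-likelihood model fitted in edgeR 4.0.16 (R 4.3.3), with Benjamini-Hochberg adjustment over all 18843 tested genes and a threshold of 0.05. The SE is the log2 fold change over the root of the F statistic. Alternatives used DESeq2 1.42.0, limma 3.58.1, other scalings and filters, the replicate number as a block, and fewer libraries. Libraries of a group differed by more than counting noise (chi-square per degree of freedom from 5.03 to 24.9).

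The members and lists were chosen with earlier results of these data known. Values are given for every member with at least 30 counts, with counts for those of at least 10. Also named are signalling genes that were called or had the 4 smallest p-values, the genes nearest to or overlapping a member, called olfactory receptors, and ERI2. RefSeq gave order, biotype and promoter windows (GRCh38.p14), and all 36 names matched it, 5 by an older symbol.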

Additional observations from a re-analysis of the deposited data

How the results depend on the processing

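For the 20 members of the main test, 315 of 319 values under the alternatives stayed above 0, and the others were of TAS2R10. It was -0.093 without ERI2 siRNA replicate 2, -0.054 without control replicate 1, -0.11 without control replicate 3 and -0.047 with replicates 2 and 3 alone. Without single libraries it ran from -0.11 to 0.24. Without a count filter 27 members were tested and 26 were above 0, TAS2R10 among them at 0.012. The members were chosen for this direction. The neighbour SSBP1 turned to -0.021 without ERI2 siRNA replicate 1, -0.026 without control replicate 1 and -0.092 with replicates 2 and 3 alone, and ran from -0.026 to 0.14 without single libraries. From 7 members called higher the count went to 11 under DESeq2 (5.49% of all tested genes called higher), 15 without a count filter (3.98%), 15 with replicates 2 and 3 alone (13.9%), and 3 at an adjusted p under 0.01 (0.738%), and it ran from 3 to 13 when single libraries were left out. Over all genes, 809 higher and 800 lower became 1035 and 1020 under DESeq2, 976 and 463 under total library size (67.8% of calls higher against 50.3%), 1290 higher without a count filter, 2622 and 2670 with replicates 2 and 3 alone, and 139 and 145 at an adjusted p under 0.01. Leaving out single libraries gave 176 to 1424 higher and 195 to 1327 lower. Signalling genes called lower numbered 2 without a count filter, 0 at an adjusted p under 0.01, 0 to 3 when single libraries were left out, and 7 with 2 higher in replicates 2 and 3 alone. In that last fit 2622 of all tested genes (13.9%) were called higher and 2670 lower. The causes were not tested. Nothing in the labels says whether replicate numbers pair the libraries. The correlation of same-numbered deviations was -0.30, -0.08 and -0.10, and no ERI2 siRNA library correlated best with its own number. These correlations cannot settle the pairing, as deviations from a group mean sum to 0 within each group. With the number as a replicate block 105 genes were higher (0.557% of all tested genes) and 98 lower. In that fit 3 members were higher, TAS2R18, TAS2R30 and TAS2R31. That block ended the calls of PRR4 and OR9A3P (adjusted p = 0.0727 by edgeR for each), MYL6P4 (0.0780), OR2D2 (0.0778) and OR2W6P (0.124), and total library size ended that of OR2W6P (0.0518). The ratio of summed levels, a measure added after the data were seen, was 1.56 under total library size and 1.65 with replicates 2 and 3 alone.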
